A study of Oryza sativa Indica Group with 4 samples.

Results

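The genes RFL, LAX1, FZP, SNB and LOG, which regulate how the rice panicle branches and forms spikelets, were followed on every array of the series. Members were the probe sets that the platform's probe-to-gene table pairs with one of these 5 genes, by symbol or synonym in NCBI's gene table. Of the 5 genes, 4 matched, with 5 probe sets in all: RFL (LOC4336857), LAX1 (LOC4327431) and FZP (LOC4344233) with 1 each, and LOG (LOC4324445) with 2. No probe set could be named as SNB through these tables, so SNB was not analysed here. Probe sets with a single gene stood for 17905 genes over the whole array.

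RNA of young panicles (primordia at the stage numbered 0 by the submitters) of Oryza sativa, Indica Group, was hybridised to an Affymetrix rice array. Every sample pooled 10 recombinant inbred lines, obtained by inbreeding the offspring of a cross until each line breeds true, here from 2 cultivars that the labels leave unnamed. One kind of bulk pooled lines that bear many grains on a panicle (high grain number) and the other kind lines that bear few (low grain number), with 2 biological replications of each and so 4 arrays. No treatment is named, and all bulks share the tissue and the cross. A bulk hides how its lines differ from one another. The labels do not say whether the replications used the same lines or plants, so p-values here cover no more than the spread among these arrays, which may be technical.

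A rice panicle forms when the shoot meristem turns into an inflorescence meristem, which lays down branch meristems that later become spikelets. RFL, the rice counterpart of the floral regulator LEAFY, is a transcription factor that keeps branch meristems active and delays the switch to spikelets. LAX1, a basic helix-loop-helix factor, is needed to start axillary meristems, and LOG is an enzyme that releases active cytokinin in meristem tips. FZP, an ethylene response factor family protein, stops further branching in the spikelet and so fixes spikelet identity, and SNB, an AP2 family protein, governs the change from spikelet to floral meristem. The comparison of high with low bulks asked whether RNA of these genes differs in young panicles of lines that go on to bear many or few grains.

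The depositors' intensities were quantile normalised before the arrays were compared, and values are given on that linear scale unless said otherwise, replicate 1 before replicate 2 in each group. The 4 arrays had Pearson correlations of 0.969 to 0.981 over the 34316 tested probe sets, on log2 values. For panicle meristem, 5 of 6 markers were measured (OSH1, MADS34, MADS14, MADS15 and MADS18), and their summed intensity was 1776 and 1710 in the high bulks, against 2077 and 1662 in low ones, with overlap. Later floret organ genes were also measured, and the summed intensity of 10 of 11 such markers was 3151 and 2762 in the high bulks, against 2800 and 2948 in low ones. The summed intensity of 7 of 8 anther tapetum markers was 251 and 469 in the high bulks, against 1044 and 1759 in low ones. That gap lay in RTS (1.52 and 0.875 in the high bulks, against 224 and 553 in low ones) and C6 (26.2 and 293 against 650 and 993). The sum of the other 5, taken after these values were seen, was 224 and 175 in the high bulks, against 170 and 213 in low ones. For 3 of 4 secondary wall markers the sum was 45.4 and 66.2 in the high bulks, against 277 and 327 in low ones, and CESA7 and CESA4 of this list passed the limma threshold, as did RTS. For green leaf, 2 of 8 markers were measured, with sums of 2450 and 1961 in the high bulks, against 2514 and 2106 in low ones. As a measure of RNA integrity, the 3' signal of actin was divided by its 5' signal. This gave 33.3 and 36.9 for the high bulks against 42.2 and 47.8 for the low bulks. The same ratio for GAPDH was 1.32 and 9.09 in the high bulks, against 0.4 and 7 in low ones. The deposited GAPDH signals were 10 or below on every array, so that ratio says little. The part of these differences in the values of the branching genes was not tested, and fewer cells of a type cannot be told apart from less RNA per cell in such tissue samples.

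None of the branching regulators changed past the test's threshold between the bulks. Of the 5 member probe sets, 3 were bright enough to be tested, and 0 of these 3 passed a limma adjusted p of 0.05, where 0.568% of all 34316 tested probe sets did (limma, two-sided, Benjamini-Hochberg, 0 of the 3 at an unadjusted p under 0.05, as 8.24% of all tested probe sets were). The high and low arrays overlapped for all 5 member probe sets. Among all tested probe sets, 37.1% had groups that did not overlap. The plot of member values by array shows RFL and the brighter LOG probe set above the value of 16 that was added before taking logs, FZP and the dimmer LOG probe set below it, and LAX1 between 9.82 and 15.98.

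**Figure D1:**
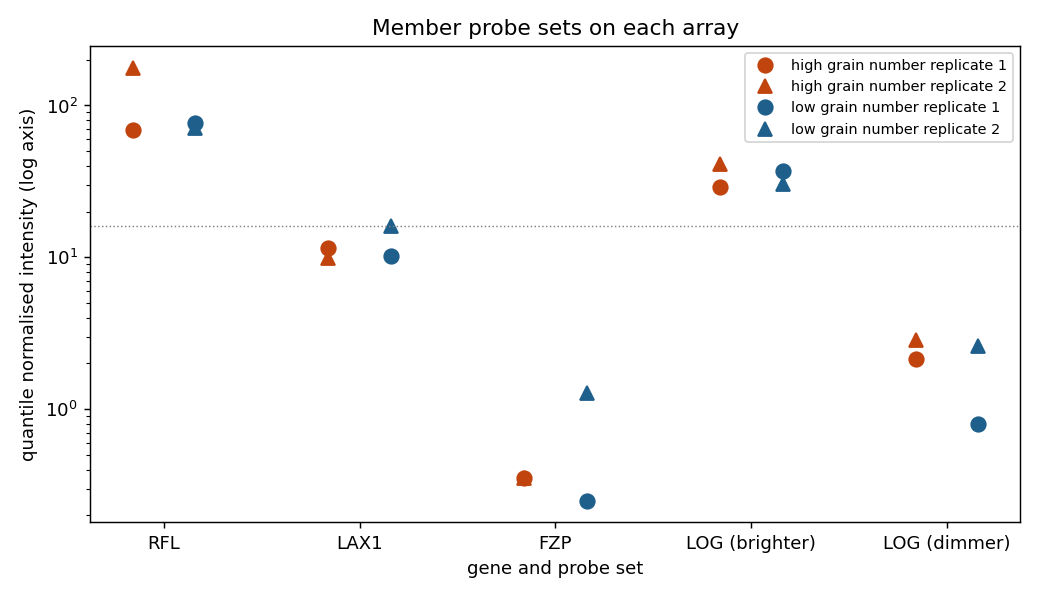
Quantile normalised intensity (log axis) of the 5 member probe sets on the 4 arrays, with high grain number in red and low in blue, circles for replicate 1 and triangles for replicate 2, and a dotted line at 16, the number added before logs were taken. RFL stands at 178 on high grain number replicate 2 and between 69.2 and 77.0 on the others, and the groups overlap for every probe set.

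RFL, the gene that keeps branch meristems active, had an intensity of 69.2 and 178 in high against 77.0 and 71.5 in low grain number bulks. The high grain number replicate 2 array stood above the other 3, while high grain number replicate 1 was the lowest of all, so the groups overlapped. As deposited, before normalization, the signals were 63.7 and 165 in the high bulks, against 66.2 and 93.4 in low ones, with the same array on top. The mean was 123 ± 76.6 (SD, n = 2) in the high bulks, against 74.2 ± 3.85 in low ones, a ratio of means of 1.66. The log2 difference of 0.51 ± 0.32 (SE, limma) had a 95% interval of -0.20 to 1.22 and an adjusted p of 0.774. For the value plus 16, that interval runs from 1.15-fold lower to 2.33-fold higher in the high bulks. The added 16 makes these folds smaller than those of the RFL signal itself. These arrays therefore neither show a change of RFL nor bound it tightly.

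The RFL difference rested on 1 array. Without high grain number replicate 2 the log2 difference was -0.08 (limma adjusted p = 0.949), and without high grain number replicate 1 it was 1.10 (limma adjusted p = 0.197). The RFL values of the high bulks had an SD of 0.84 on the log2 scale, against a median SD of 0.16 over tested probe sets. An SD that large or larger was seen for 0.673% of tested probe sets. The low bulks were close together, with an SD of 0.062 on the log2 scale against a median of 0.14.

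The next measures of that array were chosen after the RFL values were seen. Over all tested probe sets, 25.5% were highest on high grain number replicate 2. RFL exceeded its next highest array there by 1.06 on the log2 scale, and 21 tested probe sets, RFL included, did so by as much. MADS34 (LOC4334141), a MADS-box gene of inflorescence and spikelet meristem identity that was named after its values were seen, was also highest there. Its intensity was 37.4 and 78.3 in high against 30.4 and 43.1 in low grain number bulks. The groups overlapped, and the difference on the log2 scale was 0.44 ± 0.28 (limma adjusted p = 0.774). It was 0.028 without high grain number replicate 2 and 0.85 without high grain number replicate 1.

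Of the 19333 other tested probe sets paired with 1 gene, the 3 whose pattern lay nearest to RFL were those of BBD2 (LOC4345362), LOC4324762 and LOC4325589. Likeness was the Euclidean distance over the 4 centred log2 values, and it was 0.186, 0.199 and 0.207 in that order. LOC4325589 was at 14.8 and 42.0 in high against 12.5 and 11.7 in low grain number bulks. LOC4324762 was at 5.33 and 29.2 in high against 7.2 and 8.75 in low grain number bulks. BBD2 was at 0.45 and 16.9 in high against 2.85 and 0.2 in low grain number bulks. All 3 were high on the same single array, and a likeness over 4 arrays of which 1 stands apart says little beyond that. On every other array all 3 lay below the 16 added before logs were taken, which shapes these distances. The other tested members varied by less than 1 on the log2 scale across the arrays, and no genes were matched to them.

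**Figure D2:**
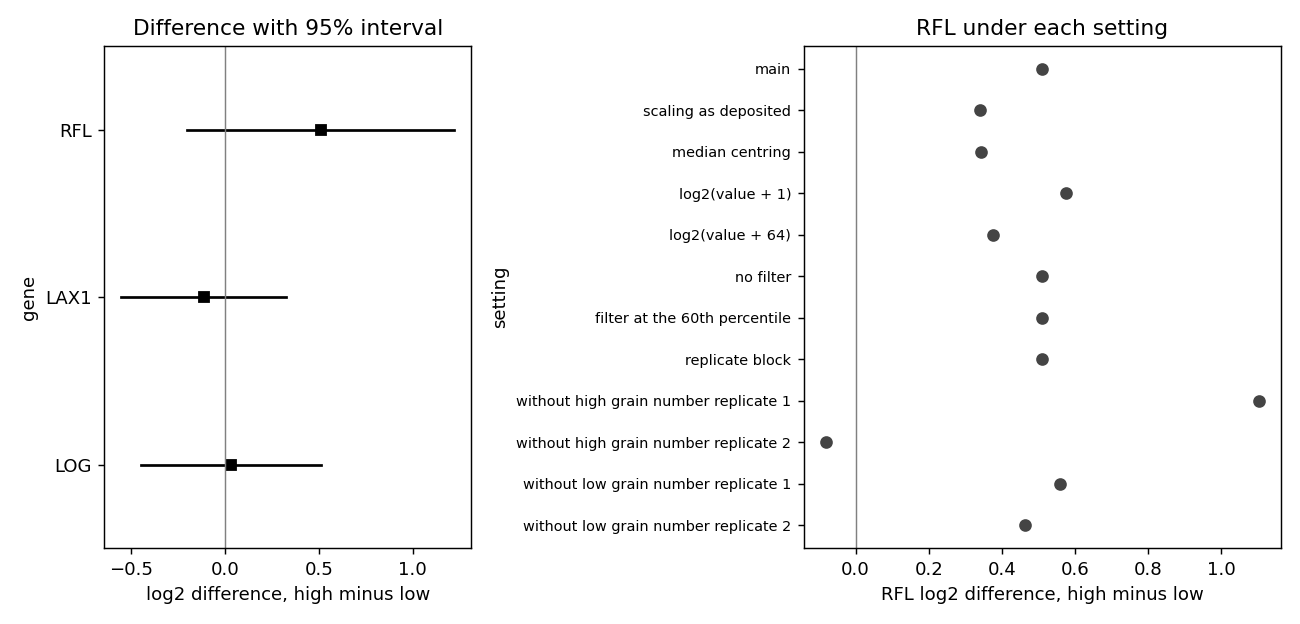
Left, log2 difference (high minus low grain number) of the 3 tested genes with limma's 95% interval, and right, the log2 difference of RFL under each processing setting and with each array left out. Every interval on the left takes in 0, and RFL runs from -0.08 without high grain number replicate 2 to 1.10 without high grain number replicate 1.

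LAX1, which starts axillary meristems, was dim. It was at 11.6 and 9.82 in high against 10.2 and 15.98 in low grain number bulks. It was highest on low grain number replicate 2, and the other 3 lay close together, so the groups overlapped. As deposited, LAX1 was at 10.4 and 10.3 in the high bulks, against 8.7 and 19.8 in low ones, and low grain number replicate 2 was also the array with the brightest deposited signal overall. The mean was 10.7 ± 1.26 (SD, n = 2) in the high bulks, against 13.1 ± 4.12 in low ones. The log2 difference was -0.12 ± 0.20 (SE, limma adjusted p = 0.946), with a 95% interval of -0.56 to 0.33, and it was 0.03 without low grain number replicate 2. Since 16 was added to every value, differences at such levels are pulled towards 0, and the interval holds on that scale only.

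LOG, the cytokinin-activating enzyme, has 2 probe sets that differ in brightness. The brighter one was at 29.0 and 41.4 in high against 37.2 and 30.4 in low grain number bulks. High grain number replicate 2 was the highest and high grain number replicate 1 the lowest, with both low arrays between them. The mean was 35.2 ± 8.77 (SD, n = 2) in the high bulks, against 33.8 ± 4.82 in low ones. The log2 difference was 0.03 ± 0.22 (SE, limma adjusted p = 0.991), with a 95% interval of -0.45 to 0.51. For the value plus 16, that is from 1.37-fold lower to 1.43-fold higher. The added 16 makes these folds smaller than those of the LOG signal itself. Under the deposited scaling and under median centring the log2 difference was -0.10. There the median of all tested probe sets moved from 0.01 to -0.075 and -0.072, and relative to that median LOG was at -0.02.

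The dimmer LOG probe set was at 2.15 and 2.85 in high against 0.8 and 2.6 in low grain number bulks. It lay below the brightness filter and was not tested with the others. FZP, which fixes spikelet identity, was the dimmest member, at 0.35 on both high arrays, against 0.25 and 1.27 in low ones. As deposited, FZP was at 0.3 and 0.4 in the high bulks, against 0.2 and 1.5 in low ones. Its groups overlapped, and no fold is given for signals this low. In a fit with no brightness filter, FZP differed by -0.04 ± 0.05 on the log2 scale (limma adjusted p = 0.904) and the dimmer LOG probe set had 0.07 ± 0.09 (limma adjusted p = 0.902). Those small errors reflect the 16 added to every value. A change in FZP RNA was not detectable at this signal, which does not show that there was none.

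Other genes of branching and spikelet formation were read from lists, and 0 of their tested members passed the limma adjusted p of 0.05 in either direction. Of 37 names of genes of axillary meristems and branch number, 10 were measured and 9 of these tested, 4 with a positive and 5 with a negative log2 difference and a median of -0.07. An unadjusted p under 0.05 was reached by 1 of the 9, where 8.24% of all tested probe sets reached it. Over all tested probe sets the median was 0.01 and 52.1% were positive. SPL14 (LOC4345998), which encodes a squamosa promoter binding protein known to raise panicle branch number, was at 144 and 185 in high against 492 and 282 in low grain number bulks. Both high arrays were below both low arrays, and the log2 difference was -1.12 ± 0.26 (limma adjusted p = 0.122). It was -0.74 without low grain number replicate 1. MOC2 (LOC4325071), a fructose bisphosphatase needed for tillering, had the next smallest p, its difference on the log2 scale being -0.40 ± 0.20 (limma adjusted p = 0.671), and its 2 probe sets had opposite signs. The brighter one was at 4.6 and 5.6 in high against 15.7 and 8.4 in low grain number bulks. These values all lay below the 16 added before logs were taken, which pulls such differences towards 0.

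Of 21 names of genes of spikelet and inflorescence meristem identity, 14 were measured and tested, 7 positive and 7 negative, with a median log2 difference of -0.01. An unadjusted p under 0.05 was reached by 1 of the 14, no larger a share than the 8.24% over all tested probe sets. MADS22 (LOC4330805), a MADS-box gene of the SVP group, was at 178 and 328 in high against 526 and 427 in low grain number bulks. Its groups did not overlap, and its difference on the log2 scale was -0.92 ± 0.26 (limma adjusted p = 0.240). It was -0.51 without high grain number replicate 1 and -1.32 without high grain number replicate 2. OSH1 (LOC4333973), a meristem homeobox gene, had -0.31 ± 0.18 (limma adjusted p = 0.745), and its 2 probe sets had opposite signs.

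LOG belongs to a family of cytokinin-activating enzymes, and 7 of 11 named LOG-like genes were measured and tested. Of these, 5 were positive and 2 negative, with a median log2 difference of 0.13. An unadjusted p under 0.05 (limma) was reached by 0 of the 7, against 8.24% of all tested probe sets. Of the 7, 5 lay above the median of all tested probe sets, and 6 did under the deposited scaling and under median centring, where 3 were positive. LOGL7 (LOC4339472) was at 11.5 and 4.25 in high against 13.4 and 18.1 in low grain number bulks (log2 difference -0.42 ± 0.22, limma adjusted p = 0.675), and its 2 probe sets had opposite signs. LOGL9 (LOC4347769) was at 41.5 and 49.9 in high against 26.1 and 37.4 in low grain number bulks, so all high values lay above the low ones (log2 difference 0.38 ± 0.22, limma adjusted p = 0.742).

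Of 30 names of genes of cytokinin synthesis, breakdown, perception and response, 14 were measured and 13 of these tested, none of them a synthesis gene, 12 with a positive log2 difference and a median of 0.22. Of the 13, 11 lay above the median of all tested probe sets, and the list's median stood 0.20 above it. Under the deposited scaling, and likewise under median centring, 11 lay above the median of all tested probe sets and 10 were positive. The list's median stood 0.13 above it there. CKX3 (LOC4348932), which degrades cytokinin, was at 20.0 and 19.0 in high against 7.7 and 11.5 in low grain number bulks, 0.47 ± 0.20 apart on the log2 scale (limma adjusted p = 0.561). It was the 1 of 13 at an unadjusted p under 0.05, against 8.24% of all tested probe sets. RR1 (LOC4335937), a response regulator of cytokinin signalling, was at 93.1 and 93.5 in high against 65.1 and 67.2 in low grain number bulks, 0.41 ± 0.20 apart on the log2 scale (limma adjusted p = 0.657). The RR1 difference was 0.22 under the deposited scaling and 0.23 under median centring, and that of CKX3 was 0.40 under each. There the median of all tested probe sets was -0.075 and -0.072. Both genes had groups that did not overlap, and neither passed. Such groups were found for 8 of the 13, and for 37.1% of all tested probe sets. They were also found for 5 of the 9 tested genes of axillary meristems and branch number. For spikelet and inflorescence meristem identity the count was 4 of 14, and for LOG-like genes 3 of 7.

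**Figure D3:**
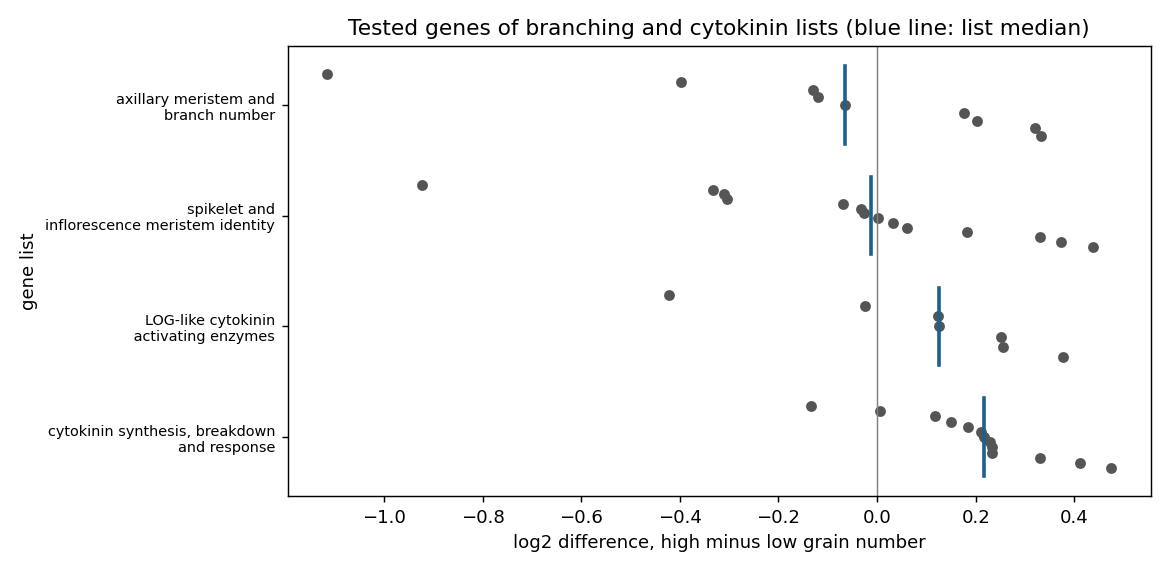
Log2 difference (high minus low grain number) of each tested gene in 4 lists of branching, spikelet and cytokinin genes, with a blue line at each list's median and points spread vertically for legibility only. The medians are -0.07, -0.01, 0.13 and 0.22 from top to bottom, the 2 lowest points are SPL14 at -1.12 and MADS22 at -0.92, and no gene passes the threshold.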

How the data were processed

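The deposited values are linear intensities, 1 for each probe set on each array, made by the authors with GCOS 1.2 per the submitters' processing notes. Their scaling target is not given in the sources used here. Array trimmed means (2% at each end) of the deposited values were 36.7 to 55.6. Of 57381 probe sets, 187 controls were left out. Intensities were quantile normalised and put on the log2(value + 16) scale. Probe sets whose mean log2 value reached the 40th percentile (34316) were tested with limma 3.58.1 (R 4.3.3), by lmFit and trended eBayes in a model with no term but group, with p-values adjusted by Benjamini-Hochberg over all of them. These steps were tested on simulated data, with changes placed only in brighter probe sets. That test does not cover members as dim as LAX1, LOG or FZP. Alternatives changed the scaling, the added value, the filter and the arrays included, or added replicate number as a block. The number of arrays limits the precision.

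Gene names came from the platform annotation and NCBI's gene table (assembly ASM3414082v1). A gene with several probe sets was given by the brightest one in lists. Names that matched several genes were left out, as were FC1, RCN1, ASP1, IDS1 and MFS1, whose entries in that table are or appear to be other genes. Members and lists were chosen with earlier results of these data known. The text names every member, the 2 genes with the smallest p in each branching, spikelet or cytokinin list, any list or marker gene past the threshold, and the 3 probe sets nearest to a tested member that spans 1 or more on the log2 scale. MADS34 and C6 were named after their values were seen. No sequences are printed, since none were used here.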

Additional observations from a re-analysis of the deposited data

How the results depend on the processing

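The count of member probe sets past the limma threshold was 0 in the analysis as reported and under all 11 alternatives run. The log2 difference of RFL kept its sign under 10 of 11, and that of LAX1 under 10 of 11. Without 1 array, RFL ranged from -0.082 (without high grain number replicate 2) to 1.10, LAX1 from -0.27 to 0.027 (without low grain number replicate 2) and LOG from -0.15 to 0.21. FZP, too dim to be tested, ranged from -0.083 (without low grain number replicate 1) to 0.0089 (without low grain number replicate 2). LOG was -0.098 under the deposited scaling and -0.095 under median centring. Its sign also turned when the replicate 2 array of the high bulks (-0.15) or that of the low bulks (-0.063) was left out. The cause was not tested. FZP had -0.32 with log2(value + 1), where the smaller added value lets dim signals differ more, and it was below the filter at the 60th percentile. Over all probe sets the count past the threshold was 195, and with no filter it was 0 (limma, 3849 at an unadjusted p under 0.05). Without 1 array it was 90 (high replicate 1), 229 (high replicate 2), 54 (low replicate 1) or 53 (low replicate 2). CESA4 lost its call without high replicate 1 or low replicate 2 (limma adjusted p = 0.0939 and 0.144). An array left alone in its group was assumed to vary like the other group.

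With replicate number as a block, an alternative set out with the others, 654 probe sets passed in place of 195, and among the lists 1 gene of axillary meristems and branch number (SPL14, limma adjusted p = 0.00572) and 1 of spikelet and inflorescence meristem identity (MADS22, limma adjusted p = 0.0234) passed. RFL had an unadjusted p of 0.0482 and an adjusted p of 0.467 (limma) with the block. The labels do not say that the numbers mark a shared batch, and deviations of same-numbered arrays had a correlation of 0.11 across tested probe sets. With the 5 left-out names kept, an alternative chosen after seeing the data, the 2 lists still had 0 genes past the threshold (limma).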
